A study of Mus musculus with 16 samples.

Results

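Eomes (eomesodermin) and 9 further transcription factors of effector CD8 T cells were followed in activated OT-1 T cells of WT and Lck-/- genotype. The 10 genes were Eomes, Tbx21, Prdm1, Id2, Irf4, Irf8, Batf, Batf3, Runx3 and Bhlhe40. They were chosen by symbol, as the array probes annotated with these names, out of 22328 genes with a named probe. Where a gene had several probes, its brightest probe was used.

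Lck, a Src-family kinase, phosphorylates the CD3 and zeta chains of the T cell receptor as the opening step of its signalling. After antigen, CD8 T cells switch on transcription factors that set how far they go towards effector function. Eomes and T-bet, the product of Tbx21, are T-box factors that drive cytotoxic and interferon-gamma genes. IRF4 and BATF bind DNA together and are induced by receptor signalling. Blimp-1 (Prdm1) and Id2 favour terminal effector cells.

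The study measured RNA from mouse lymph node T cells carrying OT-1, a transgenic receptor for the ovalbumin peptide SIINFEKL. Every sample was heterozygous for OT-1 and lacked Rag. The groups were WT (4 extracts) and Lck-/- (4 extracts), both given 100 nM peptide for 24 h in culture and 100 µg/ml cycloheximide, which freezes ribosomes on mRNA, for the last 10 min. The series title adds the word OFF to the Lck-/- genotype, which the labels do not explain, and no age, sex or number of animals is given. Extracts of a genotype are called biological replicates, with no word on separate animals or cultures, and p-values therefore cover only the spread among the extracts at hand. Lysates without nuclei were spread on sucrose gradients of 10 to 50%. Fractions 6 to 10 were pooled as polysomal RNA, the mRNA carrying several ribosomes, and fractions 1 to 5 as sub-polysomal RNA. The pools of each extract were hybridised together on 2 Agilent arrays with the dyes swapped, 16 arrays in all.

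For each gene 4 quantities were compared, all on the log2 scale. The level in the polysomal or the sub-polysomal pool is the intensity of the channel that holds it. The mean of both stands here for the amount of the mRNA. Levels were scaled between arrays and the mean weights both pools equally, so this amount is relative to other mRNAs. The ratio is polysomal over sub-polysomal, set so that the typical mRNA of an array lies near 0, and is a measure of ribosome loading. In bulk RNA, fewer cells expressing a gene and less RNA per cell cannot be told apart. Levels of different genes come from different probes and are not compared with each other. A gene was called where limma's adjusted p, by Benjamini-Hochberg over all genes tested, was under 0.05.

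Between 14619 and 50776 probes per array were well above background in the polysomal channel and between 12531 and 30976 in the sub-polysomal channel. The count of 50776 was that of a single array, of Lck-/- replicate 1, and the next highest was 26643. Without that extract 4 of 9 members were again called in the mean of both fractions, beside 2353 of 9073 genes (1943 with it). In the polysomal level 4 of 9 were called, beside 2507 of 10292 genes (1566 with it). The genes called higher there went from 615 to 1351. In the sub-polysomal level 3 of 10 were called, beside 1953 of 9703 genes (1965 with it). Lck itself fell from 15.03 to 14.18 in the mean of both fractions (difference -0.85, SE 0.14, adjusted p = 0.00314), and WT extracts of 14.72 to 15.17 did not overlap Lck-/- extracts of 14.04 to 14.36. Lck RNA thus remained well above background in the Lck-/- extracts, and where its probe lies relative to the deleted part is not given in the sources used here. The 8 T cell markers examined, among them Cd3e, Cd8a and Cd8b1, were well above background in either channel on all 8 arrays of each genotype. The arrays labelled as WT replicates 1 and 2 went against their labels. Over genes, the ratio on either array deviated from the WT mean in the opposite direction to its own dye swap (r = -0.83 and -0.81), against r of 0.46 to 0.84 in the other 6 extracts. Across these 2 extracts the dye swaps matched (r = 0.87 and 0.94). These correlations are over genes, which are not independent. The arrays that matched across the 2 extracts lay on the same slide, while the 2 arrays of every extract lay on different slides. Whether slide or labelling lies behind the match was not tested. Some results are therefore also given with the dye swaps exchanged between the 2 extracts (crossed dye swaps) or without both extracts.

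The results turn on 4 members, and the first 30 of the 60 bases of the probe that measured each are shown so that the transcript segment behind each value can be identified, 5′ to 3′, with mm9 coordinates of the whole probe as the array annotation gives them. No gene model of this build was used, so exon and UTR positions are not stated.
Eomes, chr9:118394425-118394484, plus strand: gctatgaagaacgagtgcccggtgctatta
Tbx21, chr11:96959417-96959476, minus strand: gaggggggaggctatttattgtagagagtg
Irf8, chr8:123280324-123280383, plus strand: aacagacagggtcgacagagtgtgtgatac
Batf3, chr1:192932528-192932587, plus strand: ctcctttgtccggctcggaaccttggtttg
Among the 12 probes of the 10 genes, no pair of the 66 shared an exact run longer than 8 bases on the same strand. The longest run shared by a probe of Eomes and that of its relative Tbx21 was 7 bases.

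The level of 4 of the 9 members tested differed between genotypes in the mean of both fractions. Eomes, Tbx21 and Irf8 rose in Lck-/- cells and Batf3 fell. Of all 9073 genes tested, 21.4% were called, 10.2% as higher and 11.2% as lower. The members' median difference was 0.01, beside 0.04 over all genes. Extracts of the genotypes did not overlap for these 4 members, nor for 26.4% of all genes. The 5 other members ranged from -0.32 to 0.22 and were not called. Prdm1 was too dim to be tested in this quantity.

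Eomes showed the greatest difference among the members. In the WT extracts 1 to 4 its mean level was 9.64, 9.35, 9.24 and 10.02. In the Lck-/- extracts 1 to 4 it was 10.50, 12.05, 11.74 and 12.24. Every Lck-/- extract was above every WT extract, with Lck-/- replicate 1 standing nearest to WT. The mean rose from 9.56 ± 0.35 (SD, n = 4) to 11.63 ± 0.78 (SD, n = 4), a difference of 2.07 (SE 0.33) or 4.19-fold, with an adjusted p of 0.00289. Of the 9073 genes tested, 12 had a difference of greater size in either direction. It was 2.09 on the first slide and 2.05 on the second, which were scanned separately. Each slide held 8 arrays, 4 of each genotype, from the same extracts, so the slides are not independent replicates.

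The Eomes difference lay in both pools. In the polysomal channel its level was 9.71, 9.47, 9.31 and 10.08 in WT and 10.59, 12.24, 11.84 and 12.48 in Lck-/-. In the sub-polysomal channel it was 9.56, 9.24, 9.17 and 9.96 in WT and 10.41, 11.86, 11.63 and 11.99 in Lck-/-. In neither pool did the genotypes overlap. The difference was 2.14 (SE 0.35, adjusted p = 0.00380) in the polysomal level and 1.99 (SE 0.32, adjusted p = 0.00319) in the sub-polysomal level. Without both WT replicates 1 and 2 the polysomal difference was 2.09 and no longer called (adjusted p = 0.0525).

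A dimmer Eomes probe gave values near background in WT. It was well above background on 5 of 8 WT arrays in each channel, and on 8 and 7 of 8 Lck-/- arrays in the polysomal and sub-polysomal channels. Its mean level was 7.13 in WT and 7.93 in Lck-/-. Since it passed the filter only through the Lck-/- arrays, it is no independent support. With both probes averaged the Eomes difference was 1.43 (SE 0.29, adjusted p = 0.00764).

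Tbx21, which encodes T-bet, rose as well, by a smaller amount. Its mean level was 12.87, 12.89, 12.37 and 12.75 in the WT extracts and 13.51, 13.72, 13.64 and 13.87 in the Lck-/- extracts. The genotypes did not overlap, and WT replicate 3 was the lowest extract. The mean went from 12.72 ± 0.24 to 13.68 ± 0.15 (SD, n = 4), a difference of 0.97 (SE 0.15) or 1.95-fold, with an adjusted p of 0.00240. The difference was 0.93 on the first slide and 1.00 on the second. By pool it was 1.10 (SE 0.20, adjusted p = 0.00611) in the polysomal level and 0.83 (SE 0.16, adjusted p = 0.00657) in the sub-polysomal level, with no overlap in either. The polysomal call was lost in 5 of 24 alternative settings and the sub-polysomal call in 1.

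Irf8, an interferon regulatory factor that T cells induce on activation and that dendritic cells also need, was the third member to rise. Its mean level was 13.87, 13.95, 13.84 and 14.41 in WT and 14.76, 14.75, 14.44 and 14.72 in Lck-/-. The lowest Lck-/- extract, replicate 3, lay just above the highest WT extract, replicate 4. The mean went from 14.02 ± 0.27 to 14.67 ± 0.15 (SD, n = 4), a difference of 0.65 (SE 0.15) or 1.57-fold, with an adjusted p of 0.0142. This call ended without both WT replicates 1 and 2 (0.55, adjusted p = 0.115) and without normalization between arrays (0.51, adjusted p = 0.104). In the polysomal level the difference was 0.81 (SE 0.18, adjusted p = 0.0130), and the call was lost in 7 of 24 alternative settings. In the sub-polysomal level it was 0.49 (SE 0.15, adjusted p = 0.0444), the extracts overlapped, and the call was lost in 16 of 24 alternative settings.

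Batf3, a relative of BATF that also pairs with Jun proteins and IRF factors, was the member that fell. Its mean level was 10.83, 10.77, 11.53 and 10.62 in WT and 10.38, 9.59, 9.79 and 9.94 in Lck-/-. All Lck-/- extracts were below all WT extracts. The mean went from 10.94 ± 0.40 to 9.92 ± 0.34 (SD, n = 4), a difference of -1.01 (SE 0.22, adjusted p = 0.0100), which is 2.02-fold lower. The difference was -1.01 on either slide. It was -1.03 in the polysomal level (SE 0.26, adjusted p = 0.0243), where the extracts overlapped and 11 of 24 alternative settings ended the call. In the sub-polysomal level it was -0.997 (SE 0.22, adjusted p = 0.0118), and 3 of 24 settings ended the call.

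**Figure D1:**
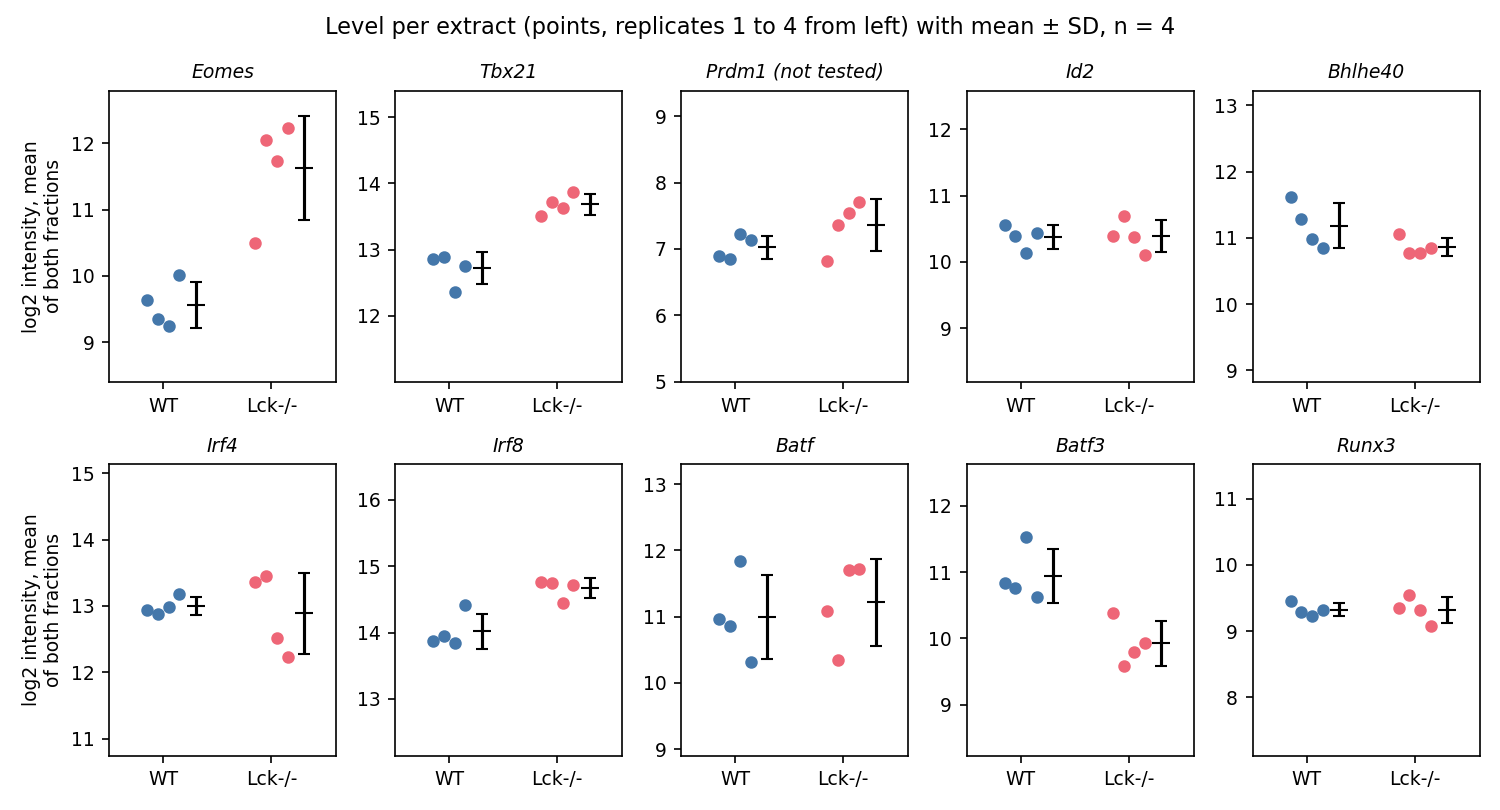
Mean log2 intensity of both fractions (vertical axis, spanning the same range of log2 units in each panel) of the 10 genes in each WT (blue) and Lck-/- (red) extract, with replicates 1 to 4 from left to right and the mean ± SD (n = 4) in black. Eomes, Tbx21 and Irf8 lie higher and Batf3 lower in all Lck-/- extracts, while Irf4 and Batf are spread widely within a genotype.

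Irf4 and Batf were spread widely among the Lck-/- extracts, and Batf among the WT extracts too. Irf4, which scales effector expansion with receptor signal strength, read 12.94, 12.88, 12.98 and 13.19 in WT and 13.36, 13.45, 12.52 and 12.23 in Lck-/-. Lck-/- replicates 1 and 2 were thus above every WT extract and replicates 3 and 4 below every one. The genotype difference was -0.11 (95% interval -0.66 to 0.44, adjusted p = 0.779). Batf, the AP-1 partner of IRF4, read 10.96, 10.85, 11.84 and 10.32 in WT and 11.08, 10.34, 11.71 and 11.72 in Lck-/-. The genotypes overlapped over nearly their whole range. The difference was 0.22 (95% interval -0.54 to 0.99, adjusted p = 0.677).

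Id2, Runx3 and Bhlhe40 were not called in any level. Id2, an inhibitor of E proteins, read 10.13 to 10.56 in WT and 10.11 to 10.69 in Lck-/- in the mean of both fractions (difference 0.01, 95% interval -0.32 to 0.34, adjusted p = 0.977). Runx3, which maintains the CD8 lineage, read 9.23 to 9.46 in WT and 9.07 to 9.54 in Lck-/- (difference 0.00, 95% interval -0.29 to 0.28, adjusted p = 0.991). For both genes the interval leaves room for a change of either sign, but not for one of the size seen for Tbx21. A dimmer Runx3 probe, not used here, read 7.56 in WT and 7.23 in Lck-/- (difference -0.33), and was too dim to be tested in this quantity. It was well above background on 7 WT and 4 Lck-/- arrays in the polysomal channel, and on 4 and 6 in the sub-polysomal channel. Bhlhe40, a basic helix-loop-helix factor induced by receptor signals, read 11.62, 11.29, 10.99 and 10.85 in WT and 11.06, 10.77, 10.77 and 10.85 in Lck-/-. Its difference of -0.32 (95% interval -0.70 to 0.05) was not called (adjusted p = 0.194). Prdm1 was well above background in the polysomal channel on 5 of 8 arrays of each genotype and could be tested in the sub-polysomal level alone, where it was well above background on 4 of 8 WT and 6 of 8 Lck-/- arrays and so entered only through Lck-/-. There it read 6.87, 6.74, 7.41 and 6.99 in WT, against 6.87, 7.32, 7.61 and 7.72 in Lck-/-. The genotypes overlapped, with a difference of 0.38 (SE 0.21, adjusted p = 0.201).

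Across pools, Eomes, Tbx21, Irf8 and Batf3 were the members called in the polysomal level, of 9 tested, and in the sub-polysomal level, of 10 tested. Of all genes, 15.2% were called in the polysomal level (5.98% higher and 9.24% lower) and 20.3% in the sub-polysomal level (9.49% higher and 10.8% lower). In either pool 3 members had no overlap between genotypes, beside 23.0% of all genes in the polysomal and 26.1% in the sub-polysomal pool. Each of the 4 kept its sign in both pools. Without both WT replicates 1 and 2, 0 of 9 members were called in the polysomal level, beside 246 of 10292 genes. In the sub-polysomal level 3 of 10 were then called, beside 1100 of 9703 genes. With crossed dye swaps these counts were 4 of 9 (696 genes) and 3 of 10 (1107 genes). The level within a pool depends on the scaling within arrays. Without it, the median of all genes moved to -0.31 in the polysomal level and 0.37 in the sub-polysomal level. Eomes was then 1.79 (adjusted p = 0.00463) and 2.35 (adjusted p = 0.000294), both called. The calls of Tbx21 (0.56, adjusted p = 0.0734) and Irf8 (0.26, adjusted p = 0.276) in the polysomal level and of Batf3 in the sub-polysomal level (-0.57, adjusted p = 0.0538) ended.

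**Figure D2:**
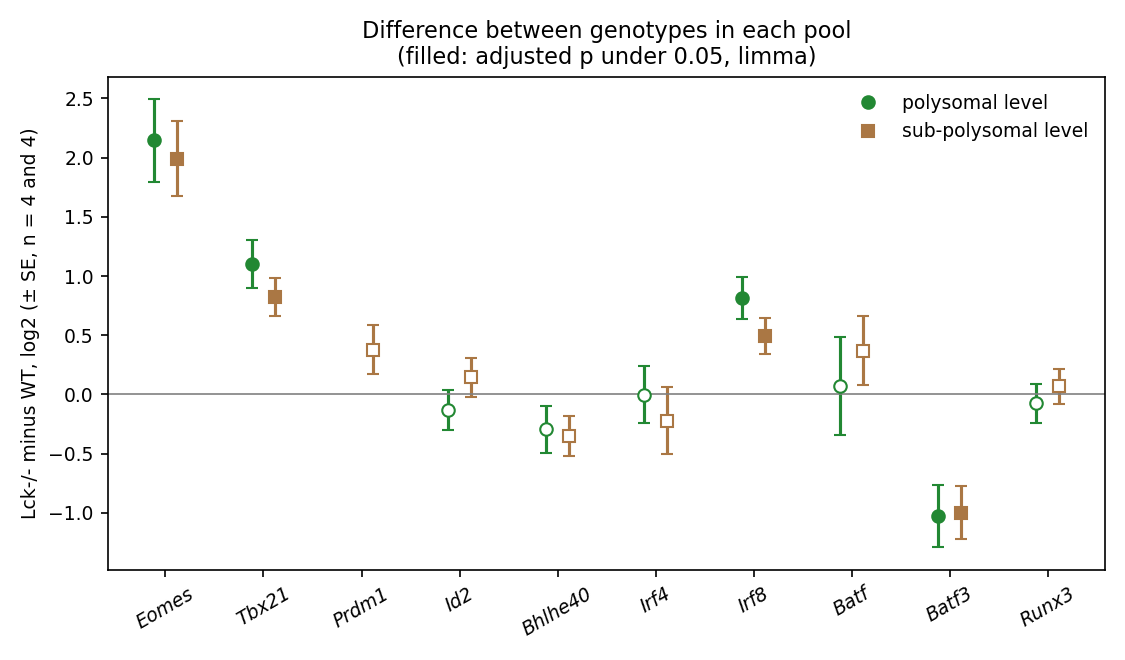
Difference between Lck-/- and WT (vertical axis, log2, ± SE, n = 4 and 4) in the polysomal level (circles) and the sub-polysomal level (squares) of each gene, filled where limma's adjusted p was under 0.05. Eomes stands at 2.14 and 1.99, and the filled points of Eomes, Tbx21, Irf8 and Batf3 keep their sign in both pools. Prdm1 was tested in the sub-polysomal level alone.

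The ratio of polysomal to sub-polysomal RNA asks whether ribosome loading, rather than amount, differed between genotypes. None of the 9 members tested was called in limma (0 of 9), and 1 of 9, Irf8, had an unadjusted p under 0.05 (its adjusted p was 0.178). Of all 8263 genes tested, 3.86% were called. The members' differences ranged from -0.29 for Batf to 0.32 for Irf8, with a median of 0.06, beside -0.04 over all genes.

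The Eomes ratio was 0.16, 0.23, 0.15 and 0.12 in WT and 0.18, 0.38, 0.21 and 0.49 in Lck-/-. The genotypes overlapped. The mean was 0.16 ± 0.05 in WT and 0.32 ± 0.15 in Lck-/- (SD, n = 4), a difference of 0.15 (95% interval -0.10 to 0.41, adjusted p = 0.484). The narrow WT spread is that of averages over arrays that disagreed. With the polysomal pool in Cy5 the ratio was 1.22 in the extract labelled WT replicate 1 and -0.45 in WT replicate 2, and with the dyes swapped it was -0.90 and 0.91. With crossed dye swaps these extracts read 1.06 and -0.68, and the WT SD was 0.71. The genotype difference of Eomes was -0.33 on the first slide and 0.64 on the second, and neither was called (adjusted p = 0.577 and 0.216). With slide and dye as terms over the 16 arrays it was 0.15 (adjusted p = 0.744).

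**Figure D3:**
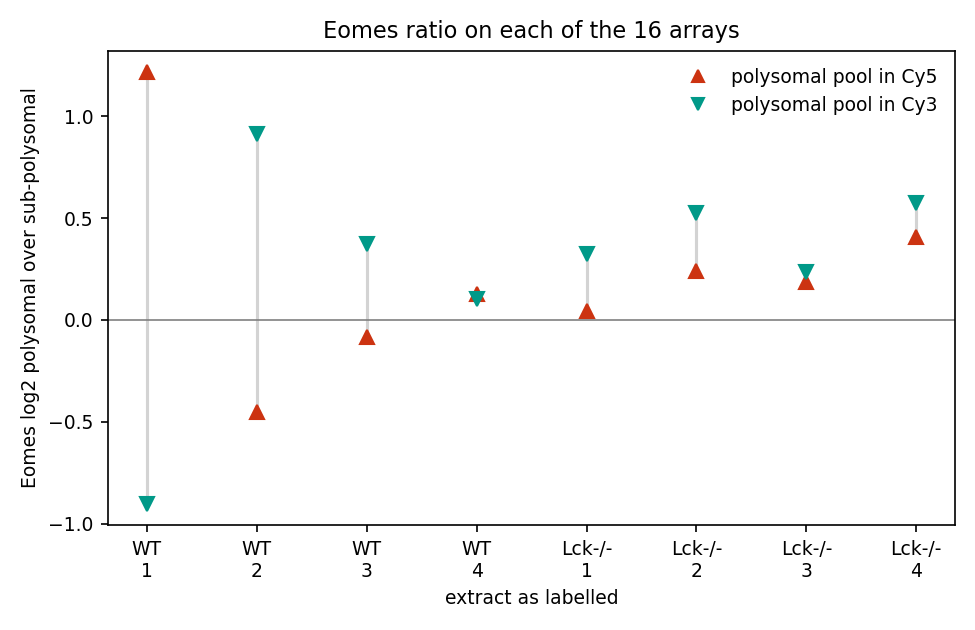
Eomes log2 ratio of polysomal over sub-polysomal RNA (vertical axis) on each of the 16 arrays, by extract as labelled, with the polysomal pool in Cy5 (upward triangles) or Cy3 (downward triangles) and a grey line joining the arrays of an extract. The arrays of WT replicates 1 and 2 lie far apart, at 1.22 and -0.90 and at -0.45 and 0.91. Those of the other 6 extracts lie closer together, the widest gap being that of WT replicate 3, at -0.08 and 0.37.

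Irf8 and Id2 were the members whose ratios did not overlap between genotypes, beside 14.5% of all genes tested. Irf8 read 0.10, 0.20, 0.19 and 0.09 in WT and 0.48, 0.64, 0.23 and 0.52 in Lck-/-, a difference of 0.32 (95% interval 0.05 to 0.59, not adjusted). Id2 read -1.63, -1.67, -1.46 and -1.20 in WT and -1.70, -1.83, -1.75 and -1.79 in Lck-/-, a difference of -0.28 (adjusted p = 0.258). Both separations are narrow beside the spread of WT replicates 1 and 2 with crossed dye swaps, where Id2 read -2.21 and -1.10 and Irf8 read 0.47 and -0.18. In the authors' deposited table with centred columns the genotypes overlapped for both genes. The differences there were 0.03 for Irf8 (adjusted p = 0.921) and -0.30 for Id2 (adjusted p = 0.200). Tbx21 ratios overlapped, at 0.37, 0.53, 0.55 and 0.93 in WT and 0.31, 1.39, 0.81 and 0.98 in Lck-/- (difference 0.28, 95% interval -0.19 to 0.75, adjusted p = 0.494).

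Within a genotype the members differed in their loading. After loess 0 stands for the typical mRNA, and 12 of 18 member ratios (9 genes in 2 genotypes) differed from it. In WT 1 member lay above 0 and 4 below, where 62.2% of all genes were called, 33.5% above and 28.7% below. In Lck-/- 4 lay above and 3 below, where 56.1% of all genes were called, 26.9% above and 29.2% below. Id2 was the member loaded least, at -1.49 (SE 0.09, adjusted p = 8.66e-07) in WT and -1.77 (SE 0.09, adjusted p = 1.22e-06) in Lck-/-. Only 3.46% of the genes tested had a lower ratio in WT and 0.581% in Lck-/-. Id2 mRNA was thus less polysomal than the typical mRNA, and it was called with crossed dye swaps too (adjusted p = 0.000161 and 0.000219).

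Batf and Batf3, both short AP-1 factors, also lay below 0. Batf was at -0.52 (adjusted p = 0.00800) in WT and -0.81 (adjusted p = 0.000806) in Lck-/-, and Batf3 at -0.44 (adjusted p = 0.0263) and -0.47 (adjusted p = 0.0220). Bhlhe40 was below 0 in WT (-0.27, adjusted p = 0.0333) and at -0.21 in Lck-/- (adjusted p = 0.0887). Tbx21 was the member loaded most, at 0.59 (adjusted p = 0.00570) in WT and 0.87 (adjusted p = 0.000808) in Lck-/-. Eomes, Irf8 and Irf4 were above 0 in Lck-/- (0.32, 0.47 and 0.29, adjusted p = 0.00762, 0.00117 and 0.0472) and not called in WT (0.16, 0.14 and 0.07, adjusted p = 0.108, 0.164 and 0.609), though the genotype difference itself was not called for any of them. With crossed dye swaps 5 of 18 member ratios were called, namely Id2 and Tbx21 in both genotypes and Irf8 in Lck-/-, while Batf, Batf3, Bhlhe40, Eomes and Irf4 were not. The share of all genes called under that setting was not counted. In the authors' deposited table with centred columns, Irf8 (0.20, adjusted p = 0.0995) and Irf4 (0.17, adjusted p = 0.266) were not called in Lck-/-.

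**Figure D4:**
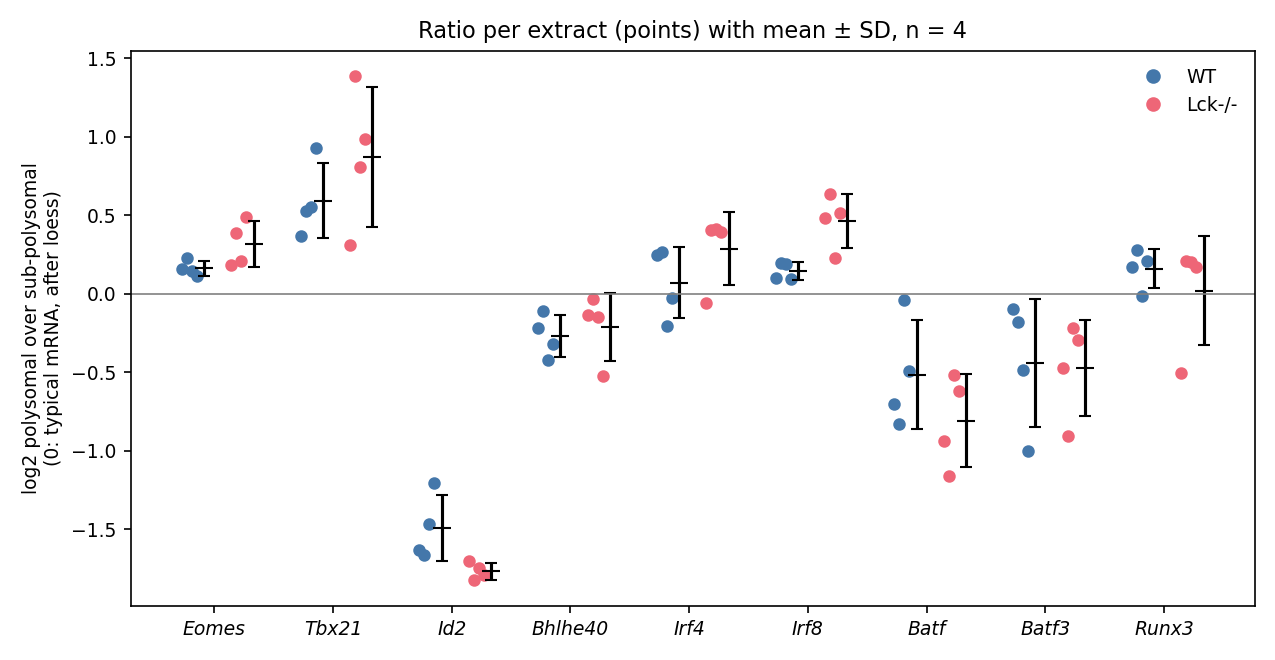
Log2 ratio of polysomal over sub-polysomal RNA (vertical axis, 0 for the typical mRNA after loess) of the 9 tested genes in each WT (blue) and Lck-/- (red) extract, with the mean ± SD (n = 4) in black. Id2 lies lowest in both genotypes, at -1.49 and -1.77 on average, and Tbx21 highest, at 0.59 and 0.87. The WT spread of Eomes, with an SD of 0.05, averages arrays that disagreed.

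The ratio is relative to the typical mRNA. Before any normalization within arrays the median log2 ratio was 1.04 to 1.73 in the WT extracts and 0.21 to 0.78 in the Lck-/- extracts. Labelling took 1.5 µl of RNA from either pool, a volume and not a mass. On that scale the members moved with the rest. Without normalization 8 of 9 were called lower, by 0.77 for Runx3 to 1.16 for Batf, and Eomes was at -0.56 (adjusted p = 0.0578). Of all 8263 genes 5980 were called there, 40 of them higher, and the median over all genes was -0.78. Relative to that median Eomes was 0.22 higher, Irf8 differed by -0.01 and Tbx21 by -0.02. In the authors' deposited table of normalized log2 ratios the 9 differences ran from -0.93 for Eomes to -1.68 for Batf, beside a median of -1.15 over all genes. With each column of that deposited table centred on its median over the tested genes, none of the 9 was called.

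The 4 calls in the mean level were set against the processing. Eomes (1.43 to 2.44 on the log2 scale), Tbx21 (0.85 to 1.13) and Batf3 (-1.17 to -0.82) were called in all 24 alternative settings, while Irf8 (0.51 to 0.78) was called in 22. The lowest Eomes value came from averaging its bright and dim probes and the highest from leaving out Lck-/- replicate 1.

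**Figure D5:**
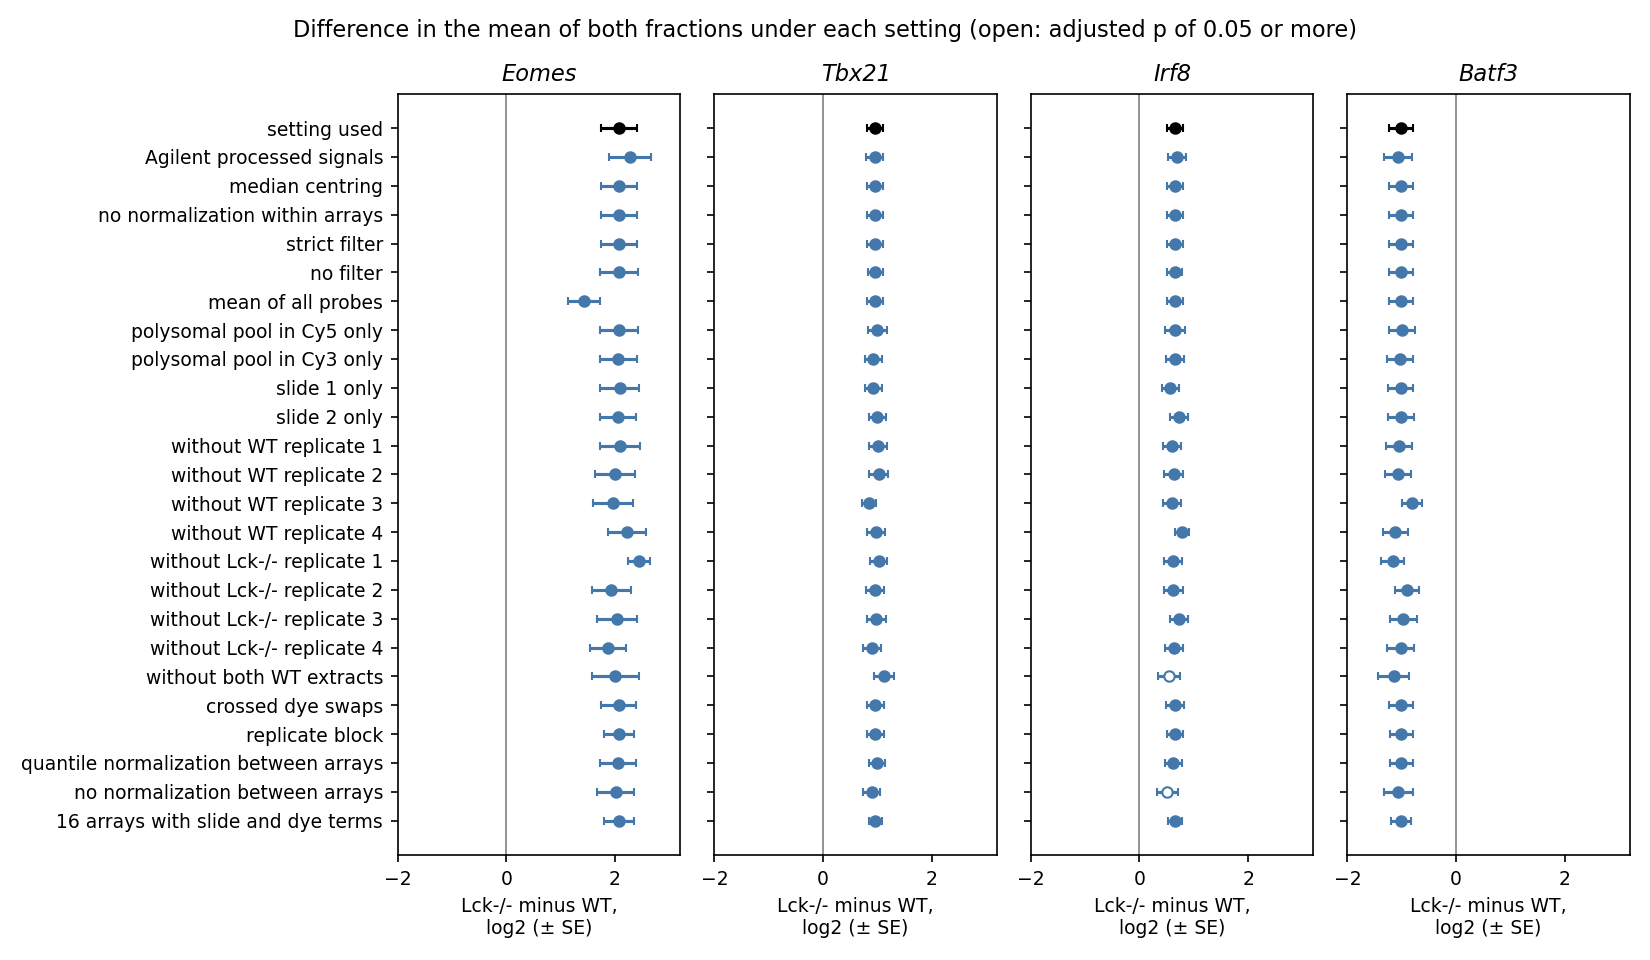
Difference between Lck-/- and WT in the mean of both fractions (horizontal axis, log2, ± SE) for Eomes, Tbx21, Irf8 and Batf3 under the setting used (black) and each alternative (blue, open where the adjusted p was 0.05 or more). The open points are those of Irf8 without both WT extracts, 0.55, and without normalization between arrays, 0.51.

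Other genes of the same programme were read from lists of DNA-binding partners, opposing and memory factors, and effector genes downstream. In the mean of both fractions 4 of 14 tested partners rose and 0 fell, with a median of 0.37, beside 10.2% higher, 11.2% lower and a median of 0.04 over all genes. These were Ikzf1, encoding Ikaros (0.54, adjusted p = 0.0297), Nfatc1, a calcium-responsive factor (0.62, adjusted p = 0.0383), Jund, an AP-1 subunit (0.60, adjusted p = 0.0437), and Ets1 (0.66, adjusted p = 0.0441). The list of opposing and memory factors also holds Stat4, Stat5a and Stat5b. Of its 13 tested genes 2 rose and 2 fell, with a median of 0.24. Tcf7, which encodes the memory factor TCF-1, rose by 1.11 (adjusted p = 0.00208) and Klf2, a quiescence and trafficking factor, by 1.16 (adjusted p = 0.00920). Id3, the relative of Id2 that receptor signals induce, had a difference of -1.16 (adjusted p = 0.00165), and Stat4, which transmits interleukin-12 signals, one of -0.53 (adjusted p = 0.0417).

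Among 17 tested effector genes downstream 5 rose and 2 fell, with a median of 0.16, beside the same shares of all genes. Gzmc, a granzyme, rose by 1.75 (adjusted p = 0.000712), Ifng, the cytokine gene that both T-box factors activate, by 1.00 (adjusted p = 0.00721), and Cxcr3, a chemokine receptor gene controlled by T-bet, by 0.96 (adjusted p = 0.00750). Ctla4, an inhibitory receptor, fell by 1.15 (adjusted p = 0.00170). The cytotoxic genes Gzma (0.60, adjusted p = 0.137), Prf1 (-0.38, adjusted p = 0.11) and Gzmb (-0.05, adjusted p = 0.926) were not called. In the ratio limma called 0 genes of the 3 lists, with 5 at an unadjusted p under 0.05, beside 3.86% of all genes called.

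The genes whose levels followed Eomes most closely over the 16 levels (8 extracts in 2 pools) were found by the root mean square difference after centring each gene, among 8628 genes. They were Cxcr6 (0.554), Pde2a (0.564), Sh3bp5 (0.567), Pomgnt2 (0.581) and Usp18 (0.590), beside a median of 1.18 over all genes. In the mean of both fractions Cxcr6, a chemokine receptor of effector and resident T cells, was 1.29 higher in Lck-/- (adjusted p = 0.00122). The likeness is a description, since the levels share arrays and the genotype difference.

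Eomes is also expressed by natural killer cells and Irf8 and Batf3 by dendritic cells, so markers of those cells were read on the same arrays. All 7 natural killer and innate lymphocyte markers were above background in either channel on at least 6 of 8 arrays of a genotype. Klrb1c (5 WT and 6 Lck-/- arrays) and Klre1 (5 and 8), like Ncr1, reached that count only in Lck-/-. The stricter filter of the mean of both fractions, which asks for both channels, was passed by 2 of the 7. Their summed linear level was 1409 to 1510 in WT and 1499 to 1998 in Lck-/- for all 7 markers. Ncr1, the defining natural killer receptor, was near background (6.68 in WT and 7.03 in Lck-/- on the log2 scale), well above it on 3 and 6 of 8 arrays. Klrd1, which activated CD8 T cells also express, was at 9.15 in WT and 8.81 in Lck-/-. Of the 2 that could be tested in the mean of both fractions, Gata3 was called higher (0.62, adjusted p = 0.0437). Klrd1 was not called (-0.34, adjusted p = 0.316). Whether the Gata3 RNA came from innate cells or from the T cells themselves was not tested. Of 8 dendritic cell markers the summed level was 26590 to 33190 in WT and 29770 to 34230 in Lck-/-, nearly all of it from the Siglech probe, while Xcr1 and Clec9a were well above background on 0 WT arrays and 1 Lck-/- array. Siglech was called higher in Lck-/- in the polysomal level (0.69, adjusted p = 0.0389) and in the ratio (1.15, adjusted p = 0.0345), and not in the mean of both fractions (0.12, adjusted p = 0.516). In the macrophage list 1 of 3 tested markers fell, Cd68 (-0.78, adjusted p = 0.00366). The summed level of the red cell genes was 232 to 343 in WT and 304 to 1408 in Lck-/-. The part of other cells in the differences of Eomes, Irf8 and Batf3 was not tested.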

How the data were processed

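Scanner files came from Agilent Feature Extraction 10.7.3.1 and give intensity values of spots and background with mm9 probe positions, per the file headers. Among other columns, the deposited detection flags say for each spot whether it was well above background. The authors' deposited table holds log2 ratios, with dye swaps combined. The submitters' processing notes name limma, and its settings are not given in the sources used here.

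Mean intensities were corrected with normexp (offset 50), normalised by loess within arrays and Aquantile between arrays in limma 3.58.1 (R 4.3.3, version 1.17.8 of data.table). Control spots had weight 0. The 2 arrays of an extract were averaged, and 8 extracts entered lmFit and eBayes with p-values adjusted over all genes tested. A probe entered where it was well above background on 6 of 8 arrays of a genotype (of both genotypes, in both channels, for the ratio). No spot was saturated (0). The fits of the ratio and the mean were tested on simulated data. Symbols came from RefSeq genes by accession (27235 probes), symbol (3581) or synonym (565), and 24300 probes without a gene were left out. The number of arrays limits the precision. All 10 genes and 4 genes with the smallest p of each list were named, and Gzma, Gzmb and Prf1 besides. Members and lists were chosen with earlier results of these data known. Alternatives covered background, normalization, filter, probe, dye, slide, replicates, dye-swap pairing and the authors' values.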

Additional observations from a re-analysis of the deposited data

Results flagged for a closer look

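Of 74 sets of 4 extracts examined (each gene and quantity within a genotype), 4 held an extract whose gap to its nearest neighbour exceeded Dixon's limit for 4 values, a limit that chance passes in about 1 of 20 sets. In Lck-/- replicate 1 the Irf4 ratio was -0.0613, where the nearest of the others was at 0.395, and the Runx3 ratio was -0.50, where the nearest was at 0.17. In Lck-/- replicate 3 Irf8 was at 14.44 in the mean of both fractions (nearest 14.72) and at 14.56 in the polysomal level (nearest 14.98).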

How the results depend on the processing

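Over 37 member results and 887 alternative values, 809 kept their direction and side of the threshold, or stayed uncalled, 46 lost a call, 19 gained one and 13 reversed. Of the uncalled values, 59 turned in sign. All 13 reversals were in the ratio on scales where the median difference of the tested genes itself moved to -0.78 or -1.15. Median centring used the array median over spots of tested and untested probes alike, so the tested genes were not centred by it. The centred columns of the authors' deposited table used the median of the tested genes. Centred on the array median, Bhlhe40 was at -0.82, Irf4 at -0.79, Irf8 at -0.79 and Tbx21 at -0.80. Unscaled, they were at -0.83, -0.80, -0.79 and -0.80. In the authors' deposited table they were at -1.17, -1.15, -1.16 and -1.14, and Eomes at -0.93. The members called in the ratio were then 8, 8 and 9 of 9, beside 4686 and 5980 of 8263 genes and 7452 of 8252 genes. Under every other setting run 0 members were called. In the polysomal level 1 member was called with the polysomal pool in Cy5 alone, 2 in Cy3 alone, 1 on the first slide and 0 without both WT replicates 1 and 2. In the sub-polysomal level 1 was called on the second slide. The cause was not tested, except that these settings hold fewer arrays. Against 0, 12 member ratios became 6 (Cy5), 7 (Cy3), 7 (second slide) and 5 (crossed dye swaps). The shares of all genes against 0 were not counted under these settings.

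Leaving out single extracts gave 0 members called in the ratio, 4 in the mean, 3 to 4 in either level and 9 to 11 against 0. Over all genes these ranged from 103 to 443 in the ratio, 1010 to 2353 in the mean, 710 to 2507 in the polysomal level and 1061 to 1999 in the sub-polysomal level. The 319 genes called in the ratio became 41 with crossed dye swaps, 86 without both WT extracts, 177 with processed signals, 204 without a filter, 36 and 30 with either dye alone, 68 on the second slide, 4686 centred on the median, 5980 unscaled, and 7452 in the authors' deposited table (731 once centred). The 1943 genes of the mean became 999 and 940 with either dye, 1239 on the first slide, 826 without both WT extracts and 983 unscaled between arrays. The 1566 of the polysomal level became 140 and 338 with either dye, 149 on the first slide, 246 without both WT extracts, 696 with crossed dye swaps and 2920 unscaled within arrays. The 1965 of the sub-polysomal level became 755 and 499 with either dye, 276 on the second slide, 1100 without both WT extracts, 1107 with crossed dye swaps, 924 unscaled between arrays, and 3898 and 3986 with median centring and none.

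Replicate numbers did not pair the genotypes (r of deviations 0.06, -0.17, 0.26 and -0.24). With the replicate number as a block 0 members were called in the ratio, 4 in the mean, 4 in the polysomal level and 3 in the sub-polysomal level, where Irf8 was lost (adjusted p = 0.0754), and 180, 1549, 1408 and 1155 genes in all. Prdm1 had no value under the strict filter. Signal over background kept Prdm1 out of every other quantity.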
